A study of Mus musculus with 2 samples.

Results

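Ribosome biogenesis and RNA polymerase I genes are described here after knockdown of Lamtor1 in RAW264.7, a cell line with macrophage features from the mouse. The members are 43 genes, named on the array as Nop, Utp or Rrp with a digit, as Polr1 with any letter, or as 1 of a fixed set of symbols from Fbl to Gnl3. They are 43 of 13773 genes measured and of 22801 genes named on the array, and 61 probes on 70 spots read them. A gene counted as measured if, on either array, the scanner marked its brightest probe as well above background. All 43 passed, and 42 were above background on both arrays.

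The groups were Lamtor1 knockdown RAW264.7 cells, with 1 array, and control RAW264.7 cells, with 1 array. The labels give both samples the same lentiviral protocol, with a pair of short hairpin RNA vectors against Lamtor1 and then dilution of the cells. The sources used here do not give what the control received or whether the cells of a sample were 1 clone. The study asked about transcription driven by TFEB in cells that lack Ragulator, the lysosomal complex that Lamtor1 anchors. Since each group had 1 array, nothing could be tested and no p-value is given, and every difference describes these 2 arrays only. In RNA from bulk cells, fewer cells of a kind and less RNA per cell cannot be told apart.

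Ribosomes are built in the nucleolus, where RNA polymerase I transcribes the ribosomal DNA into a long precursor. Small nucleolar ribonucleoproteins (snoRNPs) modify this precursor, the box C/D kind by methylating ribose and the box H/ACA kind by forming pseudouridine, and large sets of assembly factors then process it into the small and large subunits. The kinase complex mTORC1, which is recruited to lysosomes through Ragulator, is known to promote this work in growing cells, in part through the polymerase I initiation factor encoded by Rrn3.

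Levels are log2 signals relative to the array's 75th percentile, and differences are knockdown minus control on that scale. Lamtor1 itself had a level of -0.43 on the knockdown array and 4.10 on the control array, which made it 23.1-fold lower. The 75th percentile was 1255 on the knockdown array and 1172 on the control array. Of 43020 spots, the share well above background was 52.9% on the knockdown array and 53.3% on the control array, and none was saturated. All 11 macrophage markers were above background on both arrays, while 7 of 11 markers of lymphocytes, epithelium, endothelium and fibroblasts were above background on neither. The macrophage markers did not move together, since Adgre1 had a difference of -1.56, Cd68 of 1.22 and Mrc1 of 1.21. Of the markers of other cell types, Pdgfrb was above background in the control alone and at least 2.09-fold lower in the knockdown, Pecam1 was at -0.88 and Col1a2 at 0.08. The brightest of these markers was the lymphocyte gene Cd3e, with a level of -1.35 in the knockdown and -1.40 in the control, a difference of 0.05.

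The ribosome biogenesis genes lay slightly lower in the knockdown as a set, with a median difference of -0.26 against -0.05 over all measured genes. Of the 43 genes, 31 (72.1%) had a difference below 0, beside 54.3% of all measured genes. At 1.5-fold or more, 10 genes (23.3%) were lower, beside 16.1% of all genes, and 2 (4.65%) were higher, beside 15.4%. At 2-fold or more, 1 gene (2.33%) was lower, beside 8.35% of all genes, and 0 were higher, beside 9%. The other 31 genes stayed within 1.5-fold. The differences were small in size: their SD over the 42 members above background on both arrays was 0.424, against 0.826 over all such genes. The members were also brighter, with a median level over both arrays of 2.15 against 0.07 for all measured genes. No spread over genes of like brightness is given. The smaller SD and the smaller 2-fold shares therefore cannot be read as a trait of this gene set.

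Technical spread on these arrays was measured over spots and over probes. For 216 probes printed on several spots, the median SD of a single-spot difference was 0.0440. For 3263 genes with several probes above background, the median SD between probes was 0.111, and for the 12 such members it was 0.131. By the larger of the measures over all genes, 0.111, 26 members were lower and 11 higher by more than this spread. Within it lay 6 of 43 members, beside 18.4% of all measured genes. Most measured genes thus passed this spread too, so passing it does not set the members apart. The shares of all genes by direction are not given. Spots and probes of a gene share 1 RNA sample, so neither measure covers differences between cultures.

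**Figure D1:**
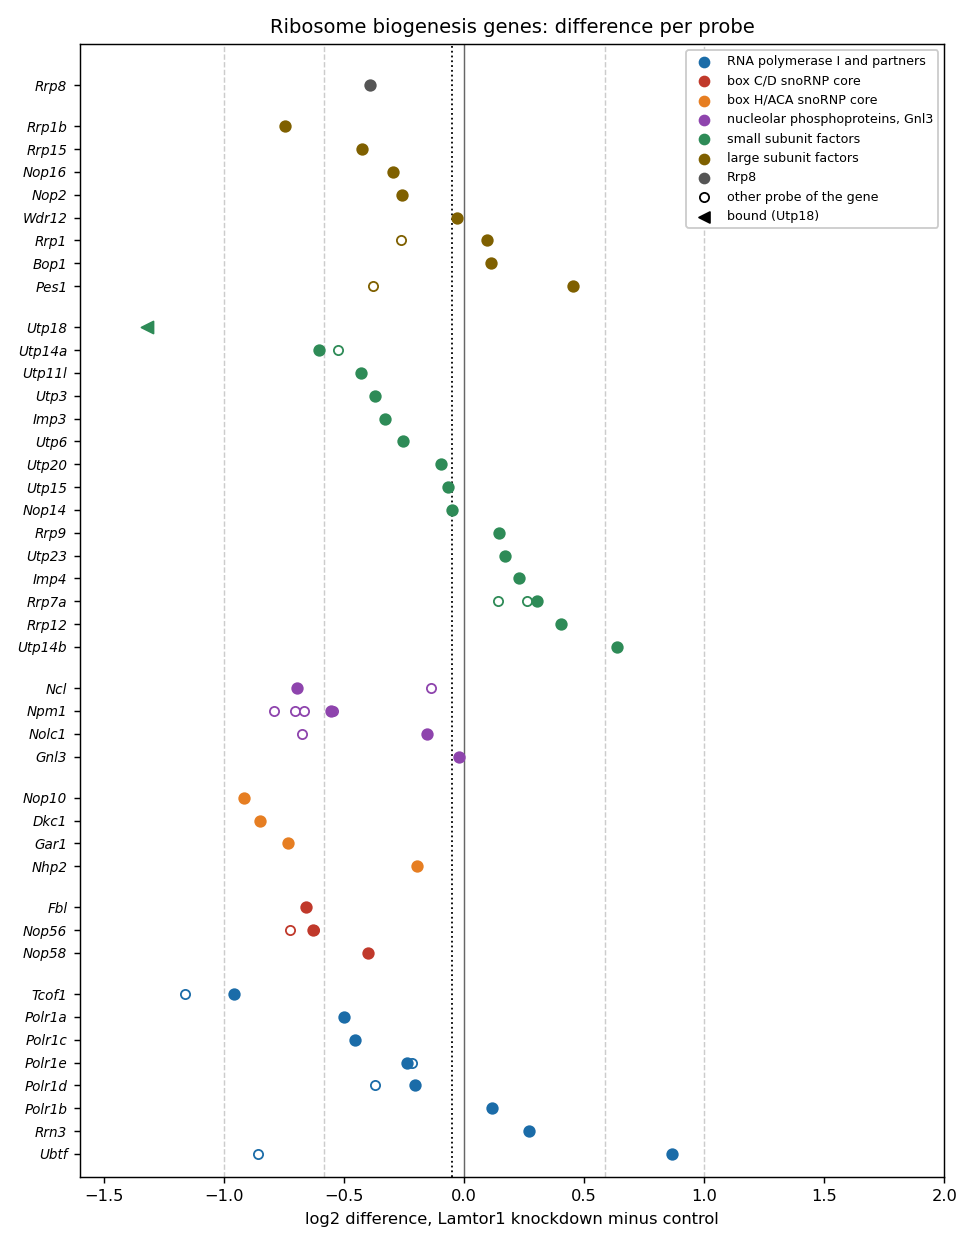
Difference of each probe of the 43 genes (x axis, log2, Lamtor1 knockdown minus control), 1 gene per row and grouped by role. Filled points are the brightest probe of a gene, open points its other probes above background on both arrays, the triangle is the bound for Utp18, dashed lines mark 1.5-fold and 2-fold, and the dotted line is the median of all measured genes at -0.05. The 7 snoRNP core genes all lie left of 0, while the probes of Ubtf, Pes1 and Rrp1 fall on both sides of it.

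The core proteins of the snoRNPs were the role group with the lowest differences. All 7 genes were below 0, beside 54.3% of all measured genes, with a median of -0.66, and 5 of them (71.4%) were at least 1.5-fold lower, beside 16.1%. The 2 kinds of particle were joined into this group after their values had been seen. Proliferation markers were lower as well: 12 of 12 were below 0, with a median of -0.41, and their summed signal was 163 times the 75th percentile in the knockdown and 205 times in the control. The part of proliferation in the snoRNP and other differences was not tested.

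Among the box H/ACA proteins, Nop10, a small core protein, had a level of 3.22 in the knockdown and 4.14 in the control, a difference of -0.92 (1.89-fold lower). Dkc1, the pseudouridine synthase dyskerin, had -0.89 in the knockdown and -0.04 in the control, a difference of -0.85. Gar1 had 3.60 in the knockdown and 4.33 in the control, a difference of -0.73. Nhp2, the remaining core protein, was nearer to the median of all genes, with 5.79 in the knockdown and 5.99 in the control and a difference of -0.20. The median of these 4 genes was -0.79, and each was read by 1 probe. The same proteins bind the RNA of telomerase, in addition to their guide RNAs.

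The box C/D proteins moved in the same direction. Fbl, the methyltransferase fibrillarin, had a level of 2.95 in the knockdown and 3.61 in the control, a difference of -0.66. Nop56, a scaffold protein of the particle, had 4.67 in the knockdown and 5.30 in the control, a difference of -0.63, and its 3 probes spanned -0.72 to -0.63. Its partner Nop58 had 2.35 in the knockdown and 2.76 in the control, a difference of -0.40. The median of the 3 genes was -0.63. The Nop56 probe that lies farthest from the other probes of the gene is shown because its 60 bases map to chr2:130102854-130103256 (mm9, plus strand), a span longer than the probe, as for a probe placed across an exon junction.
Nop56 probe: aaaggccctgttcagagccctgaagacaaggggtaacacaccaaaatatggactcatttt
It gave a level of 2.00 in the knockdown and 2.63 in the control, a difference of -0.63, like the brightest probe, which lies farther along the gene.

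The nucleolar phosphoproteins and the GTP-binding protein nucleostemin were all below 0, beside 54.3% of all genes, with a median of -0.36 over 4 genes. Npm1, nucleophosmin, a chaperone of ribosomes and histones, had a level of 6.36 in the knockdown and 6.91 in the control by its brightest probe, a difference of -0.55 (1.47-fold lower). Its 5 probes spanned -0.79 to -0.55. The whole set of Npm1 probes thus lay in 1 direction, including 2 whose span is likewise longer than the probe, at chr11:33052849-33054041 and chr11:33056689-33056991 (mm9, minus strand).
Npm1 probe, first span: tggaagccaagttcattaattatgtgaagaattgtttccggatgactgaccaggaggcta
Npm1 probe, other span: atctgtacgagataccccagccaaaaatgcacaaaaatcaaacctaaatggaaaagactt
The first span gave a difference of -0.70 and the other span -0.55.

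Ncl, nucleolin, an RNA-binding protein of the nucleolus, had a level of 4.95 in the knockdown and 5.65 in the control, a difference of -0.70, by the probe at chr1:88247953-88248012 (mm9, minus strand).
Ncl probe: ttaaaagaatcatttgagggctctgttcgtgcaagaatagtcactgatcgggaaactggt
A dimmer probe of Ncl gave only -0.14, so its probes differed by more than the usual spread. Nolc1, a chaperone of snoRNPs, showed the reverse, with -0.16 by its brightest probe (3.69 in the knockdown and 3.85 in the control) and -0.68 by its dimmer one. Gnl3, nucleostemin, had 1.33 in the knockdown and 1.34 in the control, a difference of -0.02 that turned above 0 under other scalings.

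RNA polymerase I subunits and partners did not share 1 direction. Of the 8 genes, 5 (62.5%) were below 0, beside 54.3% of all measured genes, and the median was -0.22. At 1.5-fold or more, 1 gene (12.5%) was lower, beside 16.1% of all genes. Ubtf alone (12.5%) was higher, beside 15.4%, by the brightest of 2 probes of opposite sign. Tcof1, treacle, a nucleolar phosphoprotein that acts in ribosomal DNA transcription, had a level of 1.67 in the knockdown and 2.63 in the control, a difference of -0.96. Its other probe gave -1.16. Polr1a, the largest catalytic subunit, had 1.29 in the knockdown and 1.80 in the control, a difference of -0.50. Polr1b, the other large catalytic subunit, had 0.05 in the knockdown and -0.07 in the control, a difference of 0.12. The catalytic core therefore held 1 gene on each side of 0.

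Polr1c, a subunit shared by RNA polymerases I and III, was the best measured member, since its probe was printed on 10 spots of each array. The probe maps to chr17:46381120-46381264 (mm9, minus strand), again a span longer than its 60 bases.
Polr1c probe: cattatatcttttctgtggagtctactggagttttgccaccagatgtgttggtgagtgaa
Its levels ran between 2.41 and 2.55 (median 2.53) in the knockdown and between 2.89 and 3.01 (median 2.96) in the control. The difference was -0.46 with an SD of 0.042 over the 10 spots, and the single-spot values spanned -0.55 to -0.39. These spots are repeats of 1 measurement on 1 array per group, not replicates. Polr1d, also shared with RNA polymerase III, had 3.33 in the knockdown and 3.54 in the control, a difference of -0.20, and -0.37 by its other probe. Polr1e, a subunit that helps the enzyme to initiate, had 0.24 in the knockdown and 0.48 in the control, a difference of -0.24, and -0.22 by its other probe.

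Rrn3, the initiation factor that joins RNA polymerase I to the promoter, was on the other side, with a level of 1.58 in the knockdown and 1.31 in the control, a difference of 0.27. Ubtf encodes UBF, the factor that binds across active ribosomal DNA, and its 2 probes gave opposite values. The brightest probe had 6.30 in the knockdown and 5.44 in the control, a difference of 0.87 (1.82-fold higher). The other probe had -1.71 in the knockdown and -0.85 in the control, a difference of -0.86 (1.81-fold lower). The first 30 bases of both are shown because the brightest opens with a run of TG repeats, here in capitals, of 29 bases. It lies at chr11:102166995-102167054 and the other probe at chr11:102167265-102167324 (mm9, minus strand).
Ubtf brightest probe: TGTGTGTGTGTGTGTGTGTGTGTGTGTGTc
Ubtf other probe: aacgagacgtttcctaccgatctcggctgc
Probes with a TG run of 20 bases or more read alike whatever gene they name. All 52 of them, naming 44 genes, were higher in the knockdown by 1.5-fold or more, with differences of 0.74 to 1.46 and a median of 0.96. All 24 probes with a CA run of that length were at least 1.5-fold lower, with a median of -1.06. Of the 19602 other probes above background on both arrays, 11.6% passed 1.5-fold on the higher side and 13.6% on the lower side. The value of 0.87 for Ubtf lay inside the range of the TG-run probes, and what that probe bound was not tested. Without probes that hold either run, Ubtf stood at -0.86, the median of the polymerase I group was -0.35 against -0.22, and the members past 1.5-fold on the higher side numbered 1 rather than 2. This way of leaving out probes was chosen after seeing the data.

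**Figure D2:**
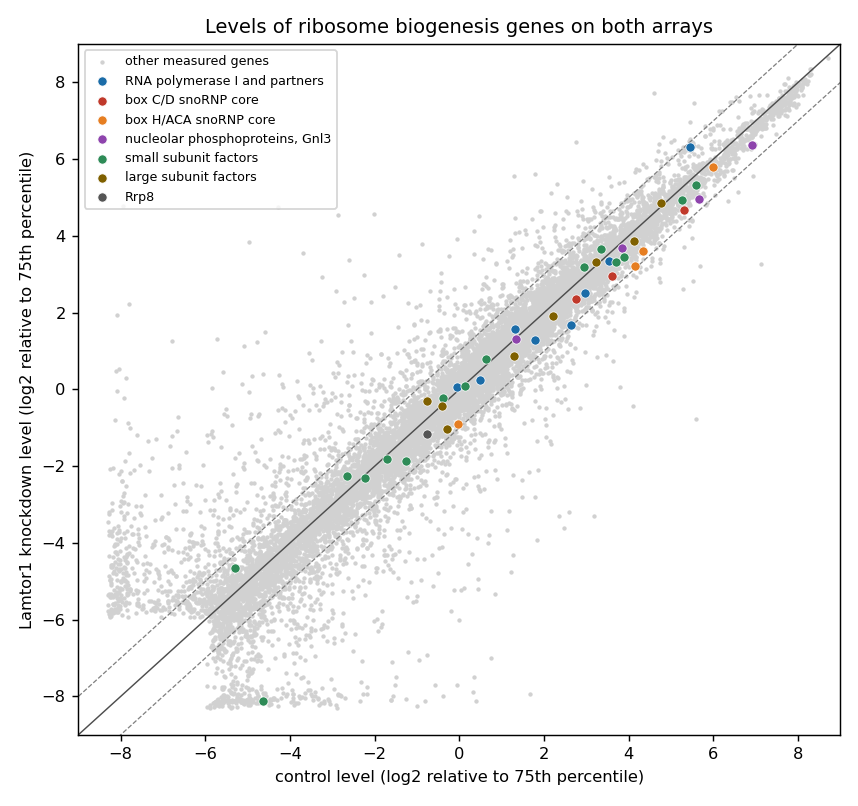
Level of each gene on the Lamtor1 knockdown array (y axis) against the control array (x axis), both as log2 signal relative to the array's 75th percentile. Coloured points are the 43 genes by role, grey points the other measured genes, the solid line marks equal levels and the dashed lines 2-fold. Every coloured point but that of Utp18, at -8.11 in the knockdown, lies between the dashed lines.

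Small subunit processome and pre-40S factors were the largest role group and had no common direction. Of 15 genes, 9 (60%) were below 0, beside 54.3% of all measured genes. The median was -0.07, which became 0.03 with median scaling and 0.0005 with cyclic loess. Utp18, a component of the processome, had -8.11 in the knockdown, below the scanner's limit for a signal well above background, and -4.64 in the control. By the bound used here it was at least 2.50-fold lower, the only member past 2-fold by its brightest probe. That bound depends on the background correction, since its difference was -0.91, under 2-fold, with normexp background correction. Utp14a, also of the processome, had -1.86 in the knockdown and -1.25 in the control, a difference of -0.61, with its other probe at -0.53.

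Further small subunit genes below 0 were Utp11l at -0.43 (3.46 in the knockdown and 3.89 in the control), Utp3 at -0.37, Imp3 at -0.33 and Utp6 at -0.26. Utp20 at -0.10, Utp15 at -0.07 and Nop14 at -0.05 were below 0 too but lay within the spread between probes of a gene, and other scalings moved Utp15 and Nop14 above 0. Imp3 and Imp4 encode partner proteins on the same snoRNP of the processome, and they stood apart, since Imp4 was at 0.23, with 3.18 in the knockdown and 2.95 in the control.

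On the higher side, Utp14b had a level of -4.66 in the knockdown and -5.30 in the control, a difference of 0.64. It is a retrogene copy of Utp14a and lies inside the span of Acsl3, and its difference was 0.16 with normexp. The parent and the copy thus had opposite signs on these arrays, but the copy was read by 1 dim probe, which limits this contrast. Rrp12, which acts in export of the pre-ribosome, had -2.25 in the knockdown and -2.66 in the control, a difference of 0.40. Rrp7a had 3.65 in the knockdown and 3.34 in the control, a difference of 0.31, and its 3 probes spanned 0.14 to 0.31. Utp23 was at 0.17 and Rrp9, which binds the processome's snoRNA, at 0.15, with Rrp9 at -0.05 after subtraction of its chromosome's median.

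The large subunit factors had a median of -0.14, with 5 of 8 genes (62.5%) below 0, beside 54.3% of all genes. Rrp1b had -1.03 in the knockdown and -0.29 in the control, a difference of -0.75. It was the only 1 of the 8 (12.5%) past 1.5-fold, beside 16.1% of all genes that were lower by as much. Rrp15 was at -0.43, Nop16 at -0.30 and Nop2, a methyltransferase of ribosomal RNA, at -0.26. Pes1, Bop1 and Wdr12 encode the PeBoW complex, which processes the precursor of the large subunit RNA. Bop1 had 3.33 in the knockdown and 3.22 in the control, a difference of 0.11, and Wdr12 had -0.44 in the knockdown and -0.41 in the control, a difference of -0.03 that other scalings moved above 0.

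Pes1 had -0.31 in the knockdown and -0.76 in the control by its brightest probe, a difference of 0.45, and -0.38 by its other probe. The brightest probe, at chr11:3879948-3880007 (mm9, plus strand), holds a 12-base stretch that occurs again within its 60 bases, from positions 1 and 39, and that is shown as the feature that sets it apart from the other probe.
Pes1 repeated stretch: aagtatgtatgg
Rrp1 likewise had probes on both sides, at 0.10 (4.86 in the knockdown and 4.76 in the control) and -0.26. The median over probes was 0.04 for Pes1 and -0.08 for Rrp1. Rrp8, which methylates ribosomal RNA and acts in silencing of ribosomal DNA, had -1.16 in the knockdown and -0.77 in the control, a difference of -0.39.

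Without the snoRNP core, the nucleolar phosphoproteins and Gnl3, the remaining 32 genes had a median of -0.15. Of these 32, 20 (62.5%) were below 0, beside 54.3% of all measured genes. These groups were formed after the values had been seen. The members were bright on the array, and brighter and dimmer members differed: the 21 members above the median brightness of the set had a median of -0.33, and the 22 others -0.08. Over all measured genes brighter than that median, 3546 in number, the median was -0.03.

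**Figure D3:**
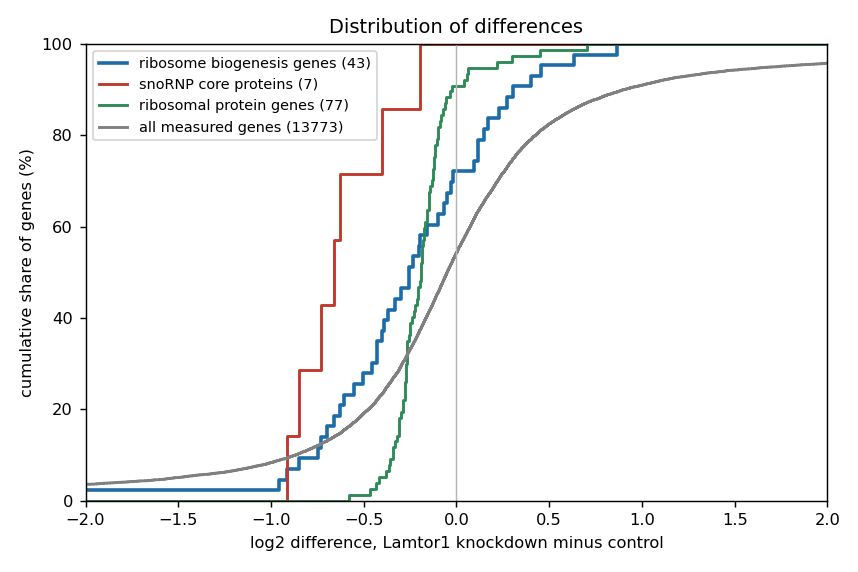
Cumulative share of genes (y axis, percent) at or below each log2 difference (x axis, Lamtor1 knockdown minus control), for the 43 ribosome biogenesis genes, the 7 snoRNP core genes among them, 77 ribosomal protein genes and all 13773 measured genes. The curve of the 43 genes crosses the middle at -0.26 and that of all genes at -0.05, and the curve of all genes reaches farther on both sides.

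The rest of the pathway was read from lists of genes outside the member rule. Of 87 other assembly factors of both subunits, 71 were below 0, beside 54.3% of all genes, with a median of -0.17. Past 1.5-fold, 6 of them (6.90%) were lower, under the 16.1% of all genes, and 1 (1.15%) was higher, under the 15.4%. Among the 40 small subunit factors, with 31 below 0, Nol10 was at -1.38 (-5.14 in the knockdown and -3.76 in the control), Emg1, a methyltransferase of the small subunit RNA, at -0.77 and Pno1 at 0.64. Among the 47 large subunit factors, with 40 below 0, Surf6 was at -1.02 (2.28 in the knockdown and 3.30 in the control), and Nop53, which the array names Gltscr2, was at -0.90. Sdad1 was at -1.17 by its brightest probe and -0.22 by another.

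The factors that assemble snoRNPs were below 0 in 10 of 10 cases, beside 54.3% of all genes, with a median of -0.31. Of them 4 (40%) were at least 1.5-fold lower, beside 16.1%. Ruvbl2, an ATPase of the R2TP chaperone, had 3.88 in the knockdown and 4.61 in the control, a difference of -0.73. Naf1, an assembly factor of box H/ACA particles, was at -0.65. Snu13, the protein that binds the box C/D motif, was at -0.61, with another probe at -0.31.

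RNA processing and polymerase lists outside the snoRNPs had medians closer to that of all genes. Of all measured genes, 54.3% were below 0. RNase MRP and P proteins were below 0 in 8 of 10 cases, with a median of -0.24. Rpp25, whose knockdown signal did not stand well above background, was at least 1.19-fold lower, and Rpp14 and Rpp40 were at -0.35. Of 13 measured genes of the RNA exosome, 10 were below 0, with a median of -0.22, Exosc8 at -0.88, Mphosph6 at -0.43 and Exosc9 at 0.53. Other polymerase I genes were below 0 in 6 of 7 measured cases, with a median of -0.11. Twistnb, a polymerase I subunit, was at -0.79 and its 3 probes spanned -0.79 to -0.43, while Znrd1, another subunit, was at -0.21 and Taf1c, of the promoter selectivity factor, at 0.34.

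RNA polymerase III genes had a median of -0.10, with 15 of 22 below 0, and RNA polymerase II subunits a median of 0.05, with 5 of 13 below 0. Over all measured genes the share below 0 was 54.3%. In the polymerase III list Polr3e was at -0.85, Polr3gl at -0.75 and Gtf3a at -0.47. In the polymerase II list Polr2h, a subunit shared by RNA polymerases I, II and III, had 0.88 in the knockdown and 2.43 in the control by its 1 probe, which made it 2.93-fold lower. Polr2e, also shared by the 3 enzymes, was at -0.35, and Polr2l, shared as well, at 0.32 and at -0.23 by another probe.

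Ribosomal protein genes, the products these factors assemble, were below 0 in 70 of 77 cases, beside 54.3% of all genes. Their median was -0.19, or -0.08 after quantile normalization. Their quartiles of -0.28 and -0.12 were closer together than those of the members, at -0.53 and 0.10. Rpl3l was at 0.71, Rpl35 at -0.58 and Rpl36a at -0.47. Myc, whose product activates many ribosome biogenesis genes, had -2.99 in the knockdown and -3.01 in the control, a difference of 0.03. In the MYC network 3 of 10 measured genes were below 0, with a median of 0.11. Mxd3 was at -0.82 and Mxd1 at 0.82, and Mycn was at -0.63 with 2.11 in the knockdown and 2.75 in the control. Among proliferation markers, the replication helicase genes Mcm7 and Mcm6 were at -0.74 and -0.62 and Top2a at -0.63. Mcm4, Cdk1, Mcm3, Mcm5 and Mcm2 lay between -0.51 and -0.24, Mki67 was at -0.10 and Pcna and Birc5 at -0.09. Ccnb1 was at -0.52 by its brightest probe, but its 3 probes spanned -0.52 to -0.09 with a median of -0.10.

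**Figure D4:**
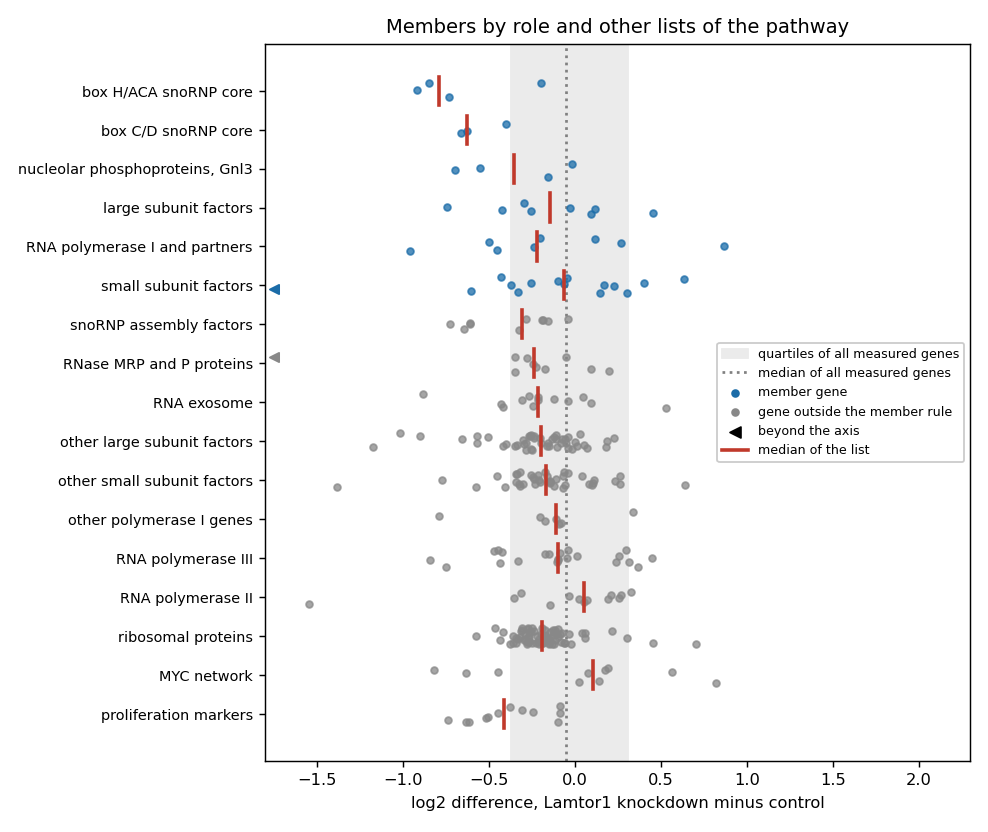
Log2 difference (x axis, Lamtor1 knockdown minus control) of each measured gene in the role groups of the members (blue, without Rrp8) and in lists outside the member rule (grey), with red bars at list medians. The grey band spans the quartiles of all measured genes, -0.37 to 0.31, and triangles mark values beyond the axis. The medians of both snoRNP core groups, -0.79 and -0.63, lie left of the band.

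Because the study concerned TFEB, the promoters were searched for CACGTG, the core letters bound by TFEB and by MYC, which read the same on both strands. RefSeq promoters of the GRCm38.p6 build, from 250 bases before to 50 after the start, were at hand for 35 of the 43 genes. Of these, 8 (22.9%) held CACGTG, against 11.4% of 10612 measured genes and 7.15% of 32851 promoters in all. In the 250 bases before the start alone, 6 of 35 (17.1%) held it, against 9.62% of the measured genes.

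Most genes with the motif were not among the lower members. Utp18 was 1 of them, the lowest of all by its bound of 2.50-fold but under 2-fold with normexp. The others were Imp4, Utp14b, Nop2, Utp20, Pes1, Rrp7a and Rrn3, and the median difference of the 8 was 0.25, with 3 below 0. Among the 8, Pes1 counted at 0.45 by its brightest probe although its other probe was at -0.38, and Utp14b and Utp18 were dim. The 27 genes without it had a median of -0.33, with 23 below 0. No promoter was at hand for Tcof1 (-0.96), Fbl (-0.66), Npm1 (-0.55), Utp11l (-0.43), Utp6 (-0.26), Bop1 (0.11), Utp23 (0.17) or Rrp12 (0.40). The contrast of members with and without the motif therefore lacks several of the lower members. Over all measured genes the median was 0.01 with the motif, with 598 of 1205 below 0. Without it the median was -0.05, with 5060 of 9407 below 0. A match is a description of the letters and does not show that a factor binds there.

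The 250 bases before the start are shown for 3 genes with the motif, in capitals, and for 2 snoRNP genes without it. Rrn3 (chr16:13780449-13780698, plus strand) holds it at 215 and 48 bases before the start, Imp4 (chr1:34439579-34439828, plus strand) at 121 and Nop2 (chr6:125131633-125131882, plus strand) at 60 bases before it. Nop56 (chr2:130274162-130274411, plus strand) and Gar1 (chr3:129831397-129831646, minus strand) hold none.
Rrn3 promoter: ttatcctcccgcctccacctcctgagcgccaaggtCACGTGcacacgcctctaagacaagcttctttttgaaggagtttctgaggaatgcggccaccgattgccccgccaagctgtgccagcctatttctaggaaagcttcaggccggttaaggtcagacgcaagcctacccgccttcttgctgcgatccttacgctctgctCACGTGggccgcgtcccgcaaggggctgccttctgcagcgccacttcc
Imp4 promoter: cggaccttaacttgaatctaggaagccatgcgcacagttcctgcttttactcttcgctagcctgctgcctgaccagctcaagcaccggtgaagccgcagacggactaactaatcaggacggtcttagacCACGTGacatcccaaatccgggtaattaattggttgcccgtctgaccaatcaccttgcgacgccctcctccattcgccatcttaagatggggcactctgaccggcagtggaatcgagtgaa
Nop2 promoter: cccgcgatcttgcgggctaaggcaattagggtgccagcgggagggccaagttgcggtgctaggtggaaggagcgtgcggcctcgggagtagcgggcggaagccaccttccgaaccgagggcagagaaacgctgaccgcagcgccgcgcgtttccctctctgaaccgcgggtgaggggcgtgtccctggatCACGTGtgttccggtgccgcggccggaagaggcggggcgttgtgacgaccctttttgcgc
Nop56 promoter: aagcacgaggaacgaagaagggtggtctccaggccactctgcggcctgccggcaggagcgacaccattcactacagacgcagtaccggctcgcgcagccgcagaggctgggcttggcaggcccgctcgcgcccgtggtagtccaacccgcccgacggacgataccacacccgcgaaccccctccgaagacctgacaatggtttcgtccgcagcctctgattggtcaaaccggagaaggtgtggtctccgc
Gar1 promoter: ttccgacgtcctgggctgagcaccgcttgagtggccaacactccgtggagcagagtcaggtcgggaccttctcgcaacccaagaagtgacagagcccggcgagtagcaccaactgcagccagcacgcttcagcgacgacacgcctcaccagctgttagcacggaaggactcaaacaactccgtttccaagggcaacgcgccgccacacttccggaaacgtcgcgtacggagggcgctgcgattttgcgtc
Rrn3 and Imp4 were on the higher side, at 0.27 and 0.23, and Nop2, with the same letters, was at -0.26.

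Some of these genes also carry small nucleolar RNA genes inside their span in RefSeq. There were 5 of them, Dkc1, Gnl3, Ncl, Nop56 and Nop58, and all 5 were below 0, beside 54.3% of all measured genes, with a median of -0.63. Of the other 38, 26 were below 0, with a median of -0.22. All 5 are among the 11 genes of the snoRNP core and the nucleolar phosphoproteins with Gnl3. Those 11 were all below 0, with the same median of -0.63, so the host genes are not a separate result. Nop56 held 5 such genes, among them Snord57 and Snord110, Nop58 held 4, Gnl3 held 3, Ncl held 2 and Dkc1 held 1. Among the host genes Gnl3, at -0.02, lay close to the median of all genes.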

How the data were processed

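Total RNA of 1 sample of Lamtor1 knockdown and 1 of control RAW264.7 cells was labelled with Cy3 and hybridised to 1 array each, per the labels. The deposited scanner files give each spot's intensity on a linear scale, and the submitters' processing notes name Agilent Feature Extraction 10.7.3.1. Signals were corrected within the array, per the file headers, those not above background were replaced by surrogates, both arrays share 1 slide and 1 scan, and probe positions are mm9. The value table deposited by the authors holds the same intensity (ratio 0.995 to 1.005, medians 27.8 for knockdown and 28 for control), so it is linear and not centred.

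Outlier spots, 177 on the knockdown and 162 on the control array, were left out, none of them a member's. Each log2 intensity was set relative to the 75th percentile of the 43020 spots of its array, repeated spots were averaged, and a gene took its brightest of 39429 probes by the mean of both arrays. Names came from RefSeq by accession (26055 probes), symbol (3195) or older symbol (930), and 9249 probes stayed unnamed. Of the member probes, 57 matched by accession and 4 by symbol. Where only 1 array measured a gene above background, its fold is a lower bound, taken against the higher of that array's lowest signal well above background and the probe's own signal.

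Genes were counted at 1.5-fold and 2-fold, and no p-value was computed. In full, the text names members past 2-fold, the 12 lowest and 6 highest members, those whose probes differ in sign, every polymerase I gene, and the 3 largest differences of each other list. The members and lists were chosen with earlier results of these data known. Alternatives were normexp (offset 50) and quantile or cyclic loess normalization with limma 3.58.1 in R 4.3.3, other scalings, probe summaries and filters. The calculation, in Python 3.11.15 with pandas 2.3.3, was tested on simulated data. Array number limits the precision.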

Additional observations from a re-analysis of the deposited data

How the results depend on the processing

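The member median stayed below 0 under all alternatives run, between -0.30 with the 75th percentile over spots above background and -0.16 with median scaling, and relative to the median of all genes it was -0.23 to -0.19. Between 27 and 32 members were below 0, and 7 to 11 were at least 1.5-fold lower. In the main setting these counts were 31 and 10, beside 54.3% and 16.1% of all measured genes. The shares of all genes move with the scaling and are not given for each alternative. These ranges alone therefore do not show whether the excess over all genes held. Members at least 1.5-fold higher numbered 1 rather than 2 with normexp, with the median over probes and without probes holding a TG or CA run. Members at least 2-fold lower numbered 0 with normexp, with only genes above background on both arrays and without Utp18, and 2 with the median over probes, where Tcof1 was at -1.06. Without TG or CA runs the polymerase I median was -0.35 and Ubtf turned to -0.86, since its other probe then stands for the gene. After subtraction of chromosome medians Rrp8 was at -0.28 and the member median at -0.20. Leaving out Utp18, these probes and the chromosome medians were chosen after seeing the data. The cause of the other shifts was not tested. Of 514 values of single members under alternatives, 16 had the other sign, in 7 members. Of the 12 members past 1.5-fold, 6 (Fbl, Ncl, Nop56, Ubtf, Utp14a and Utp14b) fell under it or changed sign in 14 of the 142 values of the 12. Utp18 and Utp14b were dim, which limits their values. No paired analysis was possible because each group has 1 array.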

Other observations

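Members that the member rule misses because the array names them by older symbols were read as well. Nop9 was at -0.30, Utp25 at -0.31, Utp4 (Cirh1a on the array) at -0.16 and Rrp36 at 0.02, all as log2 differences of knockdown minus control. With Nop53 at -0.90 they make 5 genes, of which 4 were below 0, beside 54.3% of all measured genes.

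The members lay on 18 chromosomes. The median difference of all genes per chromosome ran between -0.11 and 0.19. After it was subtracted 29 of 43 members were below 0, with a member median of -0.20. That subtraction sets the median of all genes on each chromosome to 0. The 54.3% of all genes below 0 in the main setting is therefore not the share to set beside this count.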
